A study of Homo sapiens with 4 samples.

Results

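The miR-181 family guide strands hsa-miR-181a, hsa-miR-181b, hsa-miR-181c and hsa-miR-181d were followed in HepG2 cells treated with berberine. They are 4 of the 851 human miRNAs listed on the microarray. The members were chosen by name, with the 2 h ratio of hsa-miR-181d already known, so every ratio of berberine over control, and every other value that uses the berberine 2 h array, is a description and carries no test. Of the 4 members, 3 were detected on all 4 arrays and hsa-miR-181c was detected on none, whereas 197 of the 851 human miRNAs were detected on all 4 arrays and 599 on none. HepG2 is an established human hepatoma cell line. Cells received 40 µM berberine chloride, a plant alkaloid, in dimethyl sulfoxide (DMSO), and control cells received 0.08% DMSO alone. Total RNA was sampled at 2 h and at 4 h, and each of the 4 conditions (control 2 h, berberine 2 h, control 4 h and berberine 4 h) was hybridized to 1 Agilent human miRNA array with a single dye. There was 1 culture per condition and no replicate, which leaves the variation between cultures unmeasured.

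MicroRNAs are short RNAs that are cut from hairpin precursors and loaded into Argonaute proteins, where the seed near the 5′ end pairs with target mRNAs and lowers their translation or stability. The strand that is usually kept is called the guide, and its partner from the other side of the hairpin is the passenger strand, written with an asterisk in the naming of this array. The miR-181 family is best known from lymphocyte development, where miR-181a tunes the sensitivity of the T cell receptor. In liver it has been studied in stem-like hepatocellular carcinoma cells and downstream of TGF-beta.

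The mature sequences are shown because the family is defined by its seed and because the members differ by so few bases that their probes face nearly the same target. They were taken from RefSeq with the GRCh38.p14 table, in which all 4 names matched with the suffix -5p, and capitals mark the seed, bases 2 to 8.
hsa-miR-181a: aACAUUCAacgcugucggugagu
hsa-miR-181b: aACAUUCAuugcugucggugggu
hsa-miR-181c: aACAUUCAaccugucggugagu
hsa-miR-181d: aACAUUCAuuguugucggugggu
The 4 members carry the same seed, ACAUUCA. Positions are counted from 1 at the 5′ end, with the base of the member named first before the position. From hsa-miR-181a to hsa-miR-181b the changes are A9U, C10U and A21G. From hsa-miR-181a to hsa-miR-181d they are A9U, C10U, C12U and A21G. Between hsa-miR-181b and hsa-miR-181d the only change is C12U. hsa-miR-181c has 22 bases against 23 in the others, and it equals hsa-miR-181a with the base at position 11 removed. All differences therefore lie outside the seed. Of the 2370 mature names in the RefSeq table, 5 share this seed, and the fifth, hsa-miR-4262, is not listed on the array.

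The guides come from 6 hairpin genes in 3 pairs. On chromosome 1, MIR181B1 (chr1:198858873-198858982, minus strand) and MIR181A1 (chr1:198859044-198859153, minus strand) are 61 bases apart within the interval of the lncRNA gene MIR181A1HG. On chromosome 9, MIR181A2 (chr9:124692442-124692551, plus strand) and MIR181B2 (chr9:124693710-124693798, plus strand) are 1158 bases apart within the intervals of NR6A1, which encodes an orphan nuclear receptor, and the lncRNA gene MIR181A2HG. On chromosome 19, MIR181C (chr19:13874699-13874808, plus strand) and MIR181D (chr19:13874875-13875011, plus strand) are 66 bases apart within the interval of NANOS3, a germ cell RNA-binding protein gene. Coordinates are those of GRCh38.p14, and the table used here does not say whether the hairpins are exonic or intronic. Since hsa-miR-181a and hsa-miR-181b are each encoded at 2 loci with the same mature sequence, their signals cannot be divided between chromosomes 1 and 9. The chromosome 19 hairpins are shown with the guide in capitals, because they form the pair of which only the member from MIR181D was detected.
MIR181C: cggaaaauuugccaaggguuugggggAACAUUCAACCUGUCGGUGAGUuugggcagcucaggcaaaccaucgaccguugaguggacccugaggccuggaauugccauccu
MIR181D: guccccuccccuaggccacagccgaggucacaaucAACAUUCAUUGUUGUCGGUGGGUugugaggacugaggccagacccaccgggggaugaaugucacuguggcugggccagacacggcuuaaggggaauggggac

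The arrays lay on 1 slide, held 15739 features each and had no saturated spot. They differed in brightness. Detected human miRNAs numbered from 199 on the berberine 2 h array to 242 on the berberine 4 h array, and the 75th percentile of the signal over the 197 miRNAs detected throughout ran from 169 to 297 on these same arrays. The signals were therefore also given after scaling, as log2 of the signal minus log2 of that percentile. Over all human miRNAs compared, the log2 ratio to the control had an unscaled median of -0.55 (2 h) and 0.51 (4 h), which scaling brought to -0.02 and 0.11. The liver cell label was checked with marker miRNAs. The 4 miRNAs listed for hepatocytes and hepatoma were detected on all 4 arrays. The dimmest was hsa-miR-122 with signals of 22.4 to 39.9, against 821 to 1565 for hsa-miR-192, 498 to 931 for hsa-miR-194 and 8108 to 16770 for hsa-miR-21. Whether each of them is particular to liver cells was not tested. Of the 5 blood cell markers, which matter here because miR-181a is known from lymphocytes, 4 were detected on no array, and hsa-miR-142-3p was detected on the berberine 4 h array alone with a signal of 6.13. The summed blood cell signal was thus 0 on the other arrays. The 4 muscle, 2 brain and 1 endothelial markers were detected on none.

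The total signal of a miRNA is the sum over its detected probes of the background-subtracted intensity, and its error is that given by the Feature Extraction software. For hsa-miR-181a the total signal was 20.6 ± 2.22 on the control 2 h array, 9.71 ± 1.86 on the berberine 2 h array, 18.3 ± 2.51 on the control 4 h array and 24.1 ± 2.49 on the berberine 4 h array. hsa-miR-181b had 20.6 ± 2.18, 11.0 ± 1.93, 18.2 ± 2.49 and 23.3 ± 2.40 on the arrays in the same order. For these paralogs the berberine 2 h array held the lowest value and the berberine 4 h array the highest. hsa-miR-181d had 14.1 ± 1.88, 16.9 ± 2.55, 13.4 ± 2.32 and 20.1 ± 2.26, so that each berberine array was above the control array of its time. hsa-miR-181c was written as undetected, with 0.1, on every array. The detected members were dim, with signals of 9.71 to 24.1, which lay between the percentiles 18.6 and 37.2 of the miRNAs detected on the same array. The median local background was 24 to 28, but it is a spot intensity on another scale than the total signals.

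Each member had 2 probes, printed in 8 spots each. A probe counts as detected, and enters the total, where its signal is above 3 times its own error. On the berberine 2 h array probe 1 of hsa-miR-181a had a signal of 4.12 with an error of 1.63, which is 2.53 errors, and was left out of the total. Probe 1 of hsa-miR-181b had 4.90 with an error of 1.65, which is 2.96 errors, and was left out as well. The limits of detection of these probes were 4.89 and 4.96. On the other 3 arrays both probes of hsa-miR-181a and hsa-miR-181b were summed, and those of hsa-miR-181d were summed on all 4. The total signals of hsa-miR-181a and hsa-miR-181b at 2 h therefore set 1 probe with berberine against 2 probes in the control. For neither left-out probe was any of the 8 spots well above background on the berberine 2 h array, while all 8 were positive and significant, so no ratio is given for probe 1 of these members at 2 h. When every probe detected on at least 1 array was summed on all of them, which for these members means probes 1 and 2 and is here called the same-probe sum, the berberine 2 h signal was 13.8 ± 2.47 for hsa-miR-181a and 15.9 ± 2.54 for hsa-miR-181b. These sums lie closer to the control 2 h signals than the total signals do, and the other signals of the family stayed as given above.

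**Figure D1:**
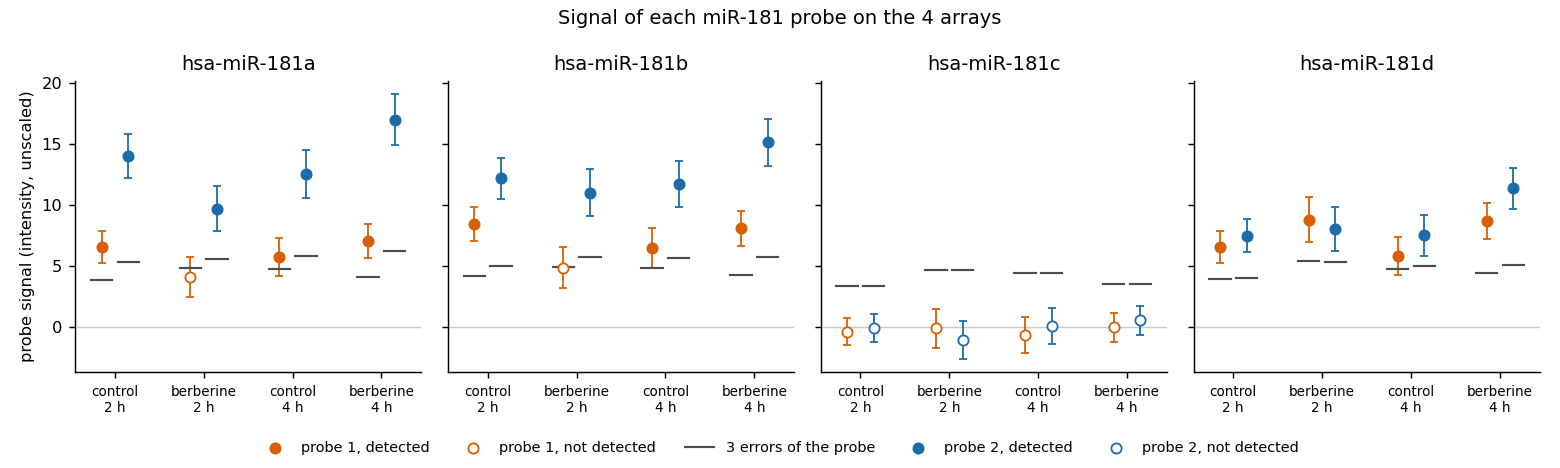
Signal of each probe of the 4 members on each array, as unscaled background-subtracted intensity with the Feature Extraction error as the bar. Filled points are detected probes, open points are undetected ones, and the short lines mark 3 errors of the probe. Probe 1 of hsa-miR-181a and probe 1 of hsa-miR-181b lie just under their line on the berberine 2 h array, at 4.12 and 4.90, and all probes of hsa-miR-181c lie near 0.

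At 2 h the total signals placed the paralogs on opposite sides of no change. After scaling, hsa-miR-181a was 0.678-fold of the control with berberine (log2 ratio -0.56, standard error (SE) 0.32) and hsa-miR-181b was 0.769-fold (log2 ratio -0.38, SE 0.29). hsa-miR-181d was 1.73-fold of the control (log2 ratio 0.79, SE 0.29). The SE was propagated from the array errors and does not cover the variation between cultures. The 95% range that this SE gives ran from -1.18 to 0.06 for hsa-miR-181a, from -0.96 to 0.20 for hsa-miR-181b and from 0.22 to 1.36 for hsa-miR-181d. Only the range of hsa-miR-181d left out 0. Among the 197 miRNAs with a ratio at 2 h, hsa-miR-181d had the rank 2 from the highest and hsa-miR-181a the rank 8 from the lowest.

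The same-probe sum narrowed the split at 2 h. The log2 ratio was -0.05 (SE 0.30) for hsa-miR-181a and 0.15 (SE 0.28) for hsa-miR-181b, with ranges of -0.64 to 0.54 and of -0.39 to 0.69. The ratio of hsa-miR-181d stayed at 0.79, since its probes were detected throughout. In this summary hsa-miR-181a and hsa-miR-181b were within their error of no change at 2 h, and a difference of the size seen in the total signals was not shown. Over all human miRNAs, the probes entering the total differed between the arrays for 32 of the 197 miRNAs compared at 2 h, and for 37 of 218 at the later time.

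No member was more than 2-fold higher or lower at 2 h, 0 of 3 by either summary. Over the 197 human miRNAs detected on both arrays at 2 h, 1.02% were past 2-fold by total signal and 0.508% with the same probes. A ratio whose 95% range left out 0 was found for 1 of 3 members at 2 h, hsa-miR-181d, by either summary. The share over the same 197 miRNAs was 9.14% by total signal and 7.61% with the same probes. At 4 h, 0 of 3 members were past 2-fold, against 0.917% of the 218 human miRNAs detected on both arrays by total signal and 0.917% with the same probes. Likewise, the 95% range left out 0 for 0 of 3 members at 4 h, against 11.5% by total signal and 7.8% with the same probes. Nothing is read from these counts for the 2 h contrast, since it was known when the family was chosen.

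At 4 h the 3 detected members lay close to no change. The log2 ratio of berberine over control was -0.003 (SE 0.25) for hsa-miR-181a, -0.05 (SE 0.25) for hsa-miR-181b and 0.19 (SE 0.30) for hsa-miR-181d. Their ranges were -0.49 to 0.48, -0.53 to 0.44 and -0.40 to 0.77, so that changes inside these limits could not be seen at this precision. hsa-miR-181d had rank 67 from the highest of 218 miRNAs. The unscaled log2 ratios at 4 h were 0.40, 0.35 and 0.59 in the same order, on a berberine array whose median ratio over all miRNAs was 0.51. Of these, only the range of hsa-miR-181d, 0.004 to 1.17, left out 0. Unscaled ratios at 2 h were -1.09 for hsa-miR-181a, -0.90 for hsa-miR-181b and 0.26 for hsa-miR-181d, on an array whose median ratio was -0.55. Without scaling, the ranges at 2 h therefore changed sides: that of hsa-miR-181d, -0.31 to 0.83, included 0, whereas those of hsa-miR-181a, -1.71 to -0.46, and hsa-miR-181b, -1.48 to -0.33, left it out. Unscaled same-probe sums gave ranges that included 0 for all 3. hsa-miR-181d was above the control at 2 h before and after scaling, but the larger share of its scaled ratio came from the scaling step of -0.52.

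**Figure D2:**
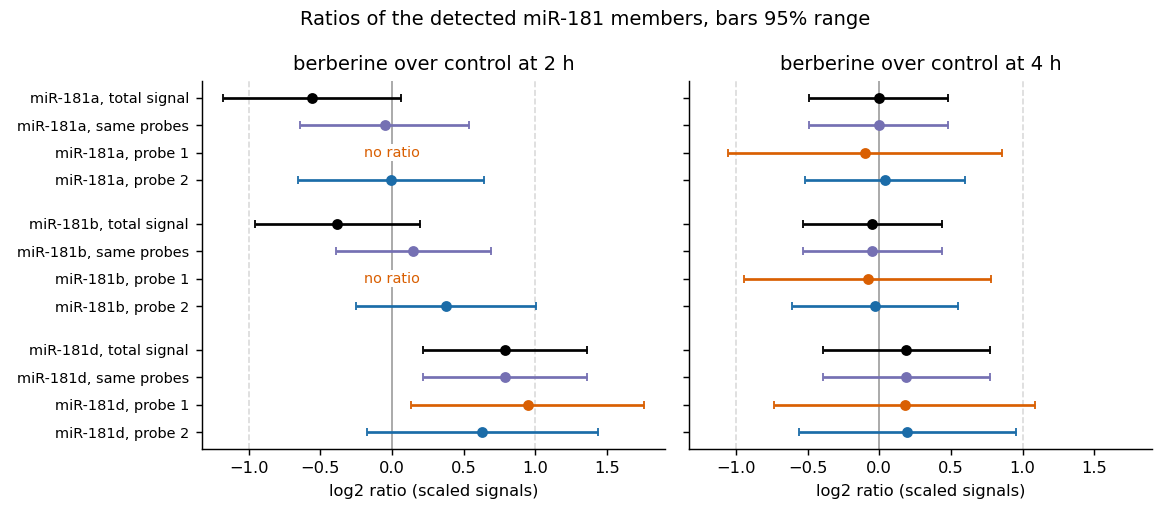
Log2 ratio of berberine over control at 2 h and at 4 h for the 3 detected members, from scaled signals, by total signal, by same-probe sum and for each probe, with bars of the 95% range. Dashed lines mark 2-fold. At 2 h the bars of hsa-miR-181d leave out 0 for both summaries and for probe 1, and the points of hsa-miR-181a and hsa-miR-181b move from -0.56 and -0.38 to -0.05 and 0.15 when the same probes are summed.

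Probe by probe, hsa-miR-181d was higher with berberine at 2 h on either probe. Probe 1 went from 6.58 ± 1.31 in the control to 8.82 ± 1.82 with berberine, a scaled log2 ratio of 0.95 (SE 0.41, range 0.14 to 1.76). Probe 2 went from 7.49 ± 1.35 to 8.06 ± 1.79, a scaled log2 ratio of 0.63 (SE 0.41, range -0.18 to 1.44). The probes differed by 0.32 with an SE of 0.58, less than their error. For hsa-miR-181a the probe detected on both arrays, probe 2, went from 14.02 ± 1.80 to 9.71 ± 1.86, a scaled log2 ratio of -0.005 (SE 0.33). Probe 2 of hsa-miR-181b went from 12.2 ± 1.66 to 11.0 ± 1.93, a scaled log2 ratio of 0.38 (SE 0.32, range -0.25 to 1.01). The probe of hsa-miR-181b that was measured on both arrays was thus on the same side as hsa-miR-181d, with 0 inside its 95% range. At 4 h the 6 probes of the detected members had log2 ratios between -0.10 and 0.20, each with 0 inside its 95% range.

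The single spots of each probe overlapped between berberine and control. For probe 1 of hsa-miR-181d, the median spot was 5.04% of the 75th percentile signal of its array on the control 2 h array, 11.3% on the berberine 2 h array, 4.84% on the control 4 h array and 5.72% on the berberine 4 h array. Its control 2 h spots ran from 3.57% to 8.14% and its berberine 2 h spots from 1.72%, a spot marked as an outlier, to 12.1%. For probe 2 the medians were 5.73%, 9.88%, 6.53% and 7.47% in the same order. The median spot of either probe was therefore highest on the berberine 2 h array. The spots were dim, and on that array 5 of 8 spots of probe 1 and 4 of 8 of probe 2 were well above background. Spot intensities and miRNA signals are on different scales, so the percents compare arrays and are not shares of a miRNA signal. Probe 1 of hsa-miR-181d, for example, had a mean spot of 12.7 on the control 2 h array against a probe signal of 6.58. Spots of 1 array share a labelled RNA and are not replicates of a condition.

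**Figure D3:**
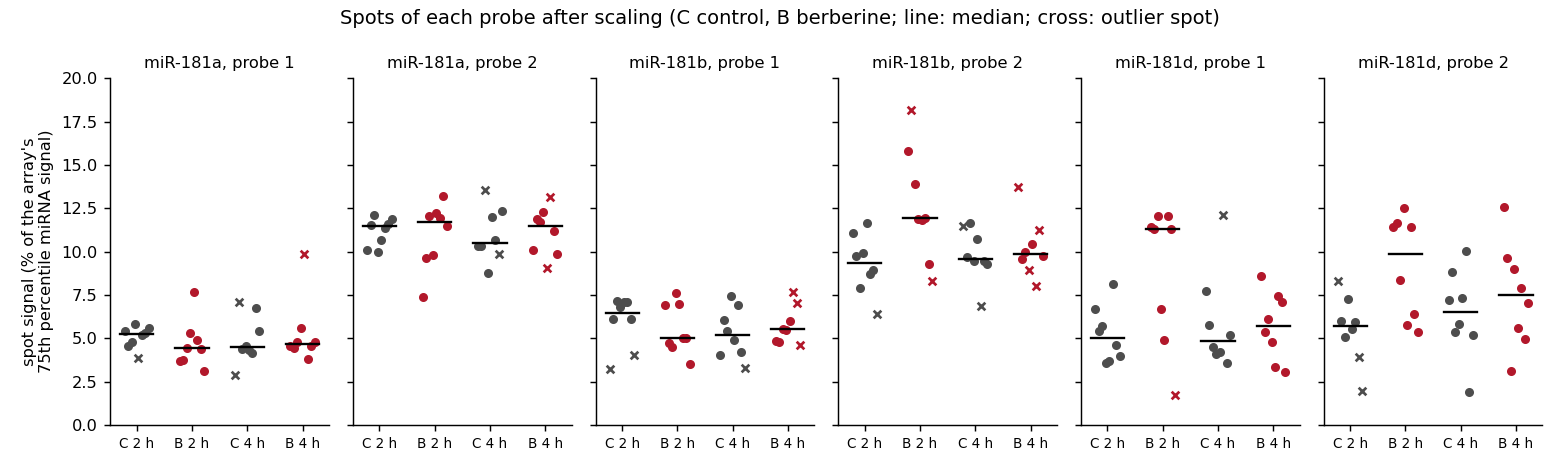
Signal of every spot of the 6 probes of the detected members, as percent of the 75th percentile miRNA signal of its array (control arrays in grey, berberine arrays in red, horizontal line at the median, crosses for spots marked as outliers). Spot and miRNA signals are on different scales, so the percents only compare arrays. For probes 1 and 2 of hsa-miR-181d the medians on the berberine 2 h array, 11.3% and 9.88%, are the highest of the 4 arrays, and the spots of berberine and control overlap for every probe.

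The paralogs were then set against each other within a time. Of 6 pairs, the 3 without hsa-miR-181c had ratios. By total signal at 2 h, the log2 ratio of hsa-miR-181a was below that of hsa-miR-181d by a difference of -1.35 (SE 0.43, range -2.19 to -0.50), and that of hsa-miR-181b by -1.17 (SE 0.41, range -1.98 to -0.36). hsa-miR-181a and hsa-miR-181b differed by -0.18 (SE 0.43), less than their error. By same-probe sum, the difference from hsa-miR-181d was -0.84 (SE 0.42, range -1.66 to -0.02) for hsa-miR-181a and -0.64 (SE 0.40, range -1.42 to 0.15) for hsa-miR-181b. The range for hsa-miR-181b, 1 base away from hsa-miR-181d, thus included 0, and that for hsa-miR-181a ended close to it. When only probes detected on all 4 arrays were kept, a choice made after the data were seen, the differences were -0.79 (range -1.66 to 0.07) and -0.41 (range -1.26 to 0.44), and either range included 0. At 4 h the 3 differences were 0.04, -0.19 and -0.24, each with 0 inside its 95% range. Probe sequences were not used here, and whether a probe of hsa-miR-181b also binds hsa-miR-181d, or the reverse, was not tested.

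Since the members were dim, their ratios were also placed among miRNAs of like signal, those whose geometric mean signal over the arrays of a time was within 2-fold. At 2 h hsa-miR-181d was above all 54 such miRNAs by total signal, whose highest log2 ratio was 0.49 and of which 19 had a different set of probes summed. By same-probe sum it was above all 61, the highest of which was 0.59. The 2 h ratio of hsa-miR-181d was known when the family was chosen, so its place at 2 h restates that ratio and is no separate result. At 4 h, 19 of 47 miRNAs of like signal were above hsa-miR-181d. For hsa-miR-181a at 2 h, 4 of 57 were lower by total signal and 14 of 64 with the same probes, so its place among dim miRNAs depended on the summary. The middle 95% of the 197 human miRNAs with a ratio at 2 h lay between -0.61 and 0.49 by total signal and between -0.16 and 0.52 with the same probes.

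**Figure D4:**
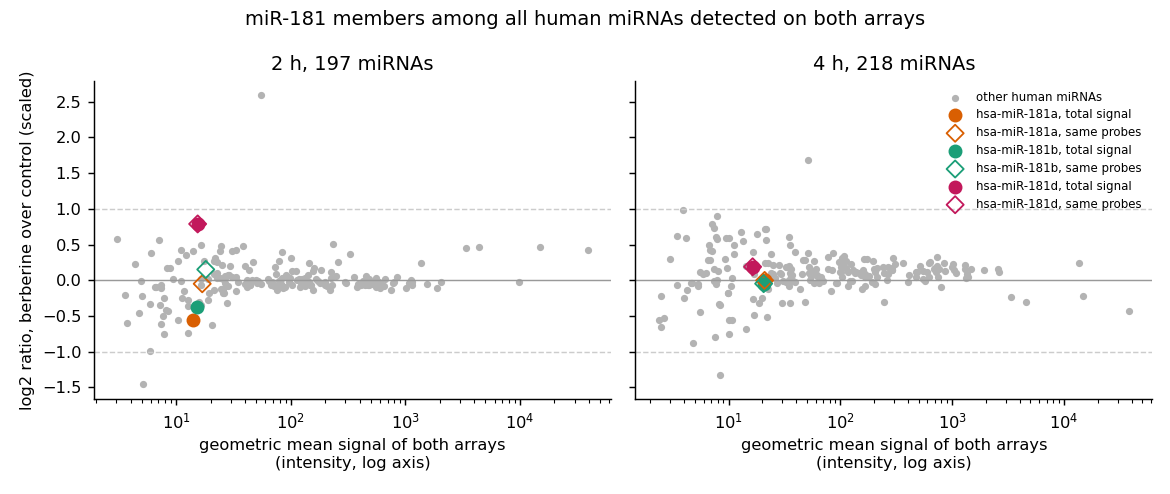
Log2 ratio of berberine over control from scaled signals against the geometric mean signal of the arrays compared (log axis), for the 197 human miRNAs with a ratio at 2 h and the 218 at 4 h in grey and the 3 detected members in colour (filled for the total signal, open for the same probes). Dashed lines mark 2-fold. At 2 h hsa-miR-181d, at 0.79, a ratio known when the family was chosen, lies above every other miRNA of like signal. At 4 h the members lie among the others.

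Between the control arrays, where the treatment did not change, the log2 ratio of 4 h over 2 h was -0.06 (SE 0.25) for hsa-miR-181a, -0.07 (SE 0.25) for hsa-miR-181b and 0.04 (SE 0.32) for hsa-miR-181d, all within their error. Between the berberine arrays it was 0.50 (SE 0.31), 0.26 (SE 0.29) and -0.56 (SE 0.27). By same-probe sum the values of hsa-miR-181a and hsa-miR-181b became -0.01 and -0.27, while hsa-miR-181d stayed at -0.56 with a range of -1.09 to -0.03. The berberine 2 h array, the dimmest of the 4, is part of both the 2 h ratio and this ratio, so they are not independent. By scaled level, hsa-miR-181d was thus highest on the berberine 2 h array, followed by berberine 4 h, control 4 h and control 2 h. The 95% range of the difference between neighbours left out 0 for berberine 2 h and berberine 4 h only, a range that holds the error of the arrays and no variation between cultures. For hsa-miR-181a and hsa-miR-181b the order of the scaled total signals was control 2 h, control 4 h, berberine 4 h and berberine 2 h, and the range of each difference between neighbours included 0. The effect of berberine at 4 h minus that at 2 h was 0.56 (SE 0.40) for hsa-miR-181a, 0.33 (SE 0.38) for hsa-miR-181b and -0.60 (SE 0.42, range -1.42 to 0.22) for hsa-miR-181d. The same-probe sums gave 0.05, -0.20 and -0.60, and 0 was inside the 95% range of each.

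The miRNAs outside the family with the most similar profile were found by the Euclidean distance between scaled log2 signals over the 4 arrays, each centred on its own mean, among the 194 miRNAs outside the family that were detected throughout. For hsa-miR-181d by total signal they were hsa-miR-572 at 0.269 and hsa-miR-197 at 0.276, against a median distance of 0.646. hsa-miR-572 also had its highest scaled signal on the berberine 2 h array, 0.51 above its own mean against 0.52 for hsa-miR-181d. Since hsa-miR-572 was picked for its similar profile, the shared peak is no separate result, and its signals were only 5.18 to 8.33. For hsa-miR-181b the nearest were hsa-miR-19b-1* at 0.0541 and hsa-miR-20a* at 0.160, and for hsa-miR-181a they were hsa-miR-19b-1* at 0.233 and hsa-miR-99a at 0.286. These neighbours changed with the probes that were summed. By same-probe sum they were hsa-miR-338-3p at 0.0251 and hsa-miR-17* at 0.0256 for hsa-miR-181a, and hsa-miR-320b at 0.0499 and hsa-miR-505 at 0.0702 for hsa-miR-181b. hsa-miR-181d kept hsa-miR-572 at 0.269, followed by hsa-miR-501-5p at 0.275. Within the family, hsa-miR-181a was 0.179 from hsa-miR-181b and 1.08 from hsa-miR-181d by total signal, and 0.196 and 0.647 with the same probes. By total signal hsa-miR-181b was thus nearer to hsa-miR-181a than any miRNA outside the family. By same-probe sum this did not hold, since 0.196 was also the median distance of hsa-miR-181a to the miRNAs outside the family. The distances are over 4 arrays only and describe these arrays.

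hsa-miR-181c, from the hairpin beside that of hsa-miR-181d, was not above its limits of detection on any array. Its 8 probe values ran from -1.02 to 0.583, the highest being 0.492 errors, against limits of detection of 3.36 to 4.72. Of its 64 spots, 1 was well above background. A signal below these limits was not detectable, so its absence is not shown. The 3 passenger strands on the array, hsa-miR-181a*, hsa-miR-181a-2* and hsa-miR-181c*, come from the same hairpins and were likewise undetected on every array. Their 10 probes gave 40 values from -0.795 to 1.32, at most 1.42 errors, against limits of 1.68 to 4.73. Thus of the 7 miR-181 strands listed, the 3 guides hsa-miR-181a, hsa-miR-181b and hsa-miR-181d were those whose probes gave a detected signal in HepG2 cells. Whether part of the signal of 1 guide came from another was not tested.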

How the data were processed

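The authors deposited, for each of the 4 arrays, Feature Extraction 10.7.3.1 output with background-subtracted fluorescence intensity per spot, probe and miRNA, not scaled between arrays. The design build per the file headers is hg18. The total intensity of a miRNA equals the sum of its probes above 3 errors, checked for every detected human miRNA within 0.1%. A deposited table of ratios holds the authors' own comparisons and was not used, although it had been planned as an alternative.

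For this report log2 of the total intensity was taken minus log2 of the 75th percentile of its array, taken over the 197 human miRNAs that every array detected. A ratio needed detection on both arrays. Errors of ratios were propagated from the deposited errors, and a 95% range assumes that they are normal. They cover the measurement on 1 array, whose number, 1 per condition, limits the precision, so no p-value was computed. The calculation was tested on simulated data drawn with the same errors that the SE uses, which checks the arithmetic only. Left-out probes, scaling and variation between cultures were not simulated. The 2-fold threshold is that of the study methods.

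The members, marker lists and alternatives were chosen with earlier results of these data known. Named were the members, their passenger strands, miRNAs sharing their seed, the 2 nearest profiles per member and the markers. Alternatives were other scalings, summaries of probes, background correction, a threshold of 1.5-fold and a filter on detection. Python 3.11.15, numpy 2.4.6, pandas 2.3.3 and matplotlib 3.10.9 were used, with limma 3.58.1 in R 4.3.3 for the normexp correction (offset 50, on the median signal, as the files used hold no mean signal). Sequences and coordinates were taken from RefSeq tables of GRCh38.p14 by name. No coordinate was converted between builds.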

Additional observations from a re-analysis of the deposited data

Results flagged for a closer look

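Between the times, the log2 ratios of the detected members had opposite signs in berberine and in control cells by total signal, with 1 array per condition, and these differences were not tested. The log2 ratio of 4 h over 2 h was 0.50 in berberine and -0.06 in control cells for hsa-miR-181a, a difference of 0.557. It was 0.26 and -0.07 for hsa-miR-181b, a difference of 0.332, and -0.56 and 0.04 for hsa-miR-181d, a difference of -0.600. The 95% range of each of the 3 differences included 0. They are the same quantity as the effect of berberine at 4 h minus that at 2 h, and by sums of the same probes on every array they were 0.05, -0.20 and -0.60. That sum holds the left-out probes of hsa-miR-181a and hsa-miR-181b, which were below their limits of detection on the berberine 2 h array. It shows how the values depend on the probes summed. The part of the left-out probes in these differences, and that of the lower brightness of the berberine 2 h array, were not tested.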

How the results depend on the processing

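Values given here are log2 ratios in the order hsa-miR-181a, hsa-miR-181b and hsa-miR-181d where 3 are given. Berberine over control at 2 h was above 0 in 3, 6 and 10 of 10 settings, and at 4 h in 1, 1 and 8 of 10. These counts include the percentile over all human miRNAs, which raised every ratio at 2 h alike, and normexp, which moved dim miRNAs alike. They are therefore no measure of stability. Scaling by the 75th percentile over all human miRNAs, which on the berberine 2 h array falls on the value written for undetected miRNAs, gave 4.55, 4.73 and 5.89 at 2 h with 3 members past 2-fold, -4.51, -4.75 and -5.57 for 4 h over 2 h in berberine, and 0.44 and 0.43 for hsa-miR-181a and hsa-miR-181b in control cells. Without scaling, 4 h over 2 h in berberine was 1.31, 1.08 and 0.25, and 1 member was past 2-fold at 2 h; the 95% range at 2 h then included 0 for hsa-miR-181d and left it out for hsa-miR-181a and hsa-miR-181b. At a threshold of 1.5-fold 1 member passed at 2 h. With normexp, hsa-miR-181a and hsa-miR-181b were at 0.34 and 0.39 at 2 h and at -0.46 and -0.54 for 4 h over 2 h in berberine, and their differences from hsa-miR-181d at 2 h were -0.16 and -0.12. With the brightest probe, hsa-miR-181b was at 0.46 at 2 h, at -0.32 for 4 h over 2 h in berberine and at -0.28 from hsa-miR-181d. With the mean of all spots it was at 0.30 at 2 h, and with the probes detected on all 4 arrays at 0.41 at 2 h and -0.39 for 4 h over 2 h in berberine. Apart from these values, the settings kept results within their 95% range: 46 of 54 ratios of berberine over control, 42 of 54 ratios between times, 51 of 54 differences between members, and 19 of 22 counts that stayed within 1.5 times. Scaling cancels in a difference between members. The settings without scaling, with the median and with the percentile over all miRNAs therefore returned the main difference by construction. They are counted among the 51 and say nothing of its stability. The normexp setting adds its offset of 50 to every spot before scaling, which by construction brings the ratios of dim miRNAs together. With it the 3 members were at 0.34, 0.39 and 0.50 at 2 h, and at -0.28, -0.32 and -0.31 at 4 h. Their smaller differences under normexp are therefore no measure of how the members differ. The causes of the other moves were not tested, except for the percentile over all miRNAs, which follows from its construction. The probes detected on all 4 arrays, and the settings for differences between members, were added after the data were seen. The deposited table of ratios was not run. No paired analysis was possible because each condition had 1 array and no test was made, and leaving out a replicate was not possible for the same reason. The members' signals were 9.71 to 24.1, and the SE of the ratios of berberine over control was 0.25 to 0.32. The median local background was 24 to 28, on the scale of spots and not of total signals.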
